A study of Mus musculus with 23 samples.

Results

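Zfp57 and 9 other genes of the machinery that keeps DNA methylation at imprinted regions were followed through whole mouse embryos that lacked Zfp57 from the egg alone, from both egg and embryo, or from neither. The 10 genes were chosen by name, as the rows of Zfp57, Trim28, Zfp445, Setdb1, Dnmt1, Uhrf1, Dnmt3a, Dnmt3b, Dnmt3l and Dppa3 among the 26183 gene symbols of the deposited count tables, and each had at least 1 read. RNA was sequenced from 23 live E13.5 (mid-gestation) embryos, 1 library per embryo, all 129/DBA hybrids from 129 mothers and fathers that carried a Zfp57 deleted allele on a DBA/2J background. M+Z+ embryos (6 female, 4 male) had Zfp57 from the mother and in the embryo. M-Z+ embryos (3 female, 3 male) came from mothers without Zfp57 and received a working copy from the father. M-Z- embryos (4 female, 3 male) had neither. Whole embryos mix all their tissues, and which exons the deleted allele lacks is not given in the sources used here. Titles give the M+Z+ group the same Zfp57-/+ genotype as the M-Z+ group, but the study's text writes +/- for M+Z+ embryos in some places and +/+ in others, and count table headers call them WT. How many working copies the M+Z+ group carried is thus unsure, and levels given as a share of M+Z+ are relative to that group as it stands.

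Both ZFP57 and ZFP445 belong to the KRAB zinc finger family and bind methylated sequence at imprinting control regions after fertilisation. Their KRAB domain recruits TRIM28 (also called KAP1), a scaffold for the H3K9 methyltransferase SETDB1 and for DNA methyltransferases. DNMT1, brought to hemimethylated DNA by UHRF1, copies methylation at each replication. DNMT3A and DNMT3B, with the catalytically inactive cofactor DNMT3L, set new methylation, above all in germ cells. DPPA3 (also called STELLA) is stored in the egg and protects methylation in the zygote, and it marks primordial germ cells later.

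Upstream sequence of the genes was taken from RefSeq (assembly GRCm38.p6), whose coordinates differ from the mm9 coordinates used elsewhere here. Of the 10 genes, 9 had 1 to 3 start sites in that table, 18 in all, and Dppa3 was not among them. The 250 bases before each start were searched on both strands for TGCCGC, the hexamer that ZFP57 is known to bind when its CpG is methylated. It was found before 2 of the 18 starts (11.1%), against 8.68% of 32851 promoters of the same length, so the share among these genes was close to that of all promoters. The matches were 1 before the single Trim28 start, beginning 59 bases upstream, and 2 before the second of 3 Dnmt3a starts. A match is a description of the letters and not a binding site. The sequences of Zfp57, the gene that was deleted, and of Trim28, its scaffold, are printed 5′ to 3′ on the plus strand with the hexamer in capitals. The first is chr17:37000913-37001162, before the most upstream of 3 Zfp57 starts, and holds 6 CpG and no match. The second is chr7:13023902-13024151 and holds 17 CpG, against a median of 6 over all promoters.
Zfp57: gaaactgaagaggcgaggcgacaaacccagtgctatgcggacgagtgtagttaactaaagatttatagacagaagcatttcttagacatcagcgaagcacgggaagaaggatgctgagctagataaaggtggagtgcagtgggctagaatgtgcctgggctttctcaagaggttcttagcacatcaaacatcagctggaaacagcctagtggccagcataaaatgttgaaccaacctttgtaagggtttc
Trim28: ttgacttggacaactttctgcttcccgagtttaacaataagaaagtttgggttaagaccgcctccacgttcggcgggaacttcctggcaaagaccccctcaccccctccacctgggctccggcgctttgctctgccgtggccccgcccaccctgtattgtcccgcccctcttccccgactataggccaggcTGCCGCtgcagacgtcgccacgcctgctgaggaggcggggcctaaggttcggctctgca

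The libraries held 15.2 to 24.1 M counts each (M for mega; median 17.4 M), and levels are given as CPM, the counts of a gene per M counts of its library. A count of 0 allows up to 3 counts, or 0.125 to 0.198 CPM per library, and such limits cover counting error only. Male M-Z- replicate 2 stood apart. The median correlation of its profile with the other 22 embryos was 0.974, against 0.986 to 0.991 for the rest. Its summed level of 15 replication and cycling genes was 2130 CPM, against 2940 to 3530 CPM in the other 22 embryos, so results that rest on it are given with and without it. Placenta markers were at or near 0 in all groups (summed level at most 0.551 CPM in any embryo, with none of 6 passing the filter on low counts). The summed level of yolk sac and liver markers was 2420 to 3970 CPM in female M-Z- against 3220 to 6920 CPM in female M+Z+ embryos, and 1670 to 4330 against 4530 to 6540 CPM in males. With both sexes together 4 of the 6 were called lower in M-Z- (Afp, Apoa2, Apoa1 and Alb), where 2.19% of all genes were called in either direction, and 0 of the 6 were called within females or within males by edgeR or DESeq2, although 6 and 5 of them had an unadjusted p below 0.05 by edgeR. Without male M-Z- replicate 2 the Apoa2 call was lost, as it was with DESeq2, and the other 3 were called. Summed erythroid markers were at 520 to 998 CPM in female M-Z- against 1020 to 1330 CPM in female M+Z+ embryos. In males they were at 630 to 1210 against 1160 to 1390 CPM. Markers of embryo organs overlapped, at 1670 to 2030 against 1600 to 2210 CPM in females and 1790 to 2250 against 1870 to 2420 CPM in males. Tests of these markers are not given here. In whole embryos fewer cells of a type and less RNA per cell cannot be told apart, and the part of these tissue shares in the values that follow was not tested. Labels do not say how the embryos fall into litters, so p-values measure the spread between these embryos and take each as independent. M-Z+ and M-Z- embryos came from mothers without Zfp57, and M+Z+ embryos from other mothers. In every comparison with M+Z+, genotype thus cannot be told apart from mother and litter.

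Levels per length set the genes far apart. In TPM, which divides counts by exon length and scales each embryo to the same total, the mean over the 23 embryos was 290 for Trim28, 122 for Uhrf1, 99.0 for Dnmt1, 84.9 for Zfp445, 80.8 for Dnmt3a and 57.3 for Setdb1. Zfp57 stood at 47.8 ± 9.77 TPM (SD, n = 10) in M+Z+ embryos, below each of these 6 genes. Dnmt3b stood at 7.87, Dppa3 at 1.19 and Dnmt3l at 0.0496 TPM. Trim28 (246 to 351 TPM) lay above Uhrf1 (98.1 to 140 TPM) with no overlap. From Uhrf1 down to Zfp57 the ranges of each gene and the next overlapped across embryos. Within an embryo, though, Uhrf1 lay above Dnmt1, Dnmt1 above Zfp445 and Dnmt3a above Setdb1 in 23 of 23. Zfp445 lay above Dnmt3a in 19 of 23 embryos and Setdb1 above Zfp57 in 7 of the 10 M+Z+ embryos, so only these pairs changed places. The 2 genes at the bottom are known for germ cell and egg expression.

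**Figure D1:**
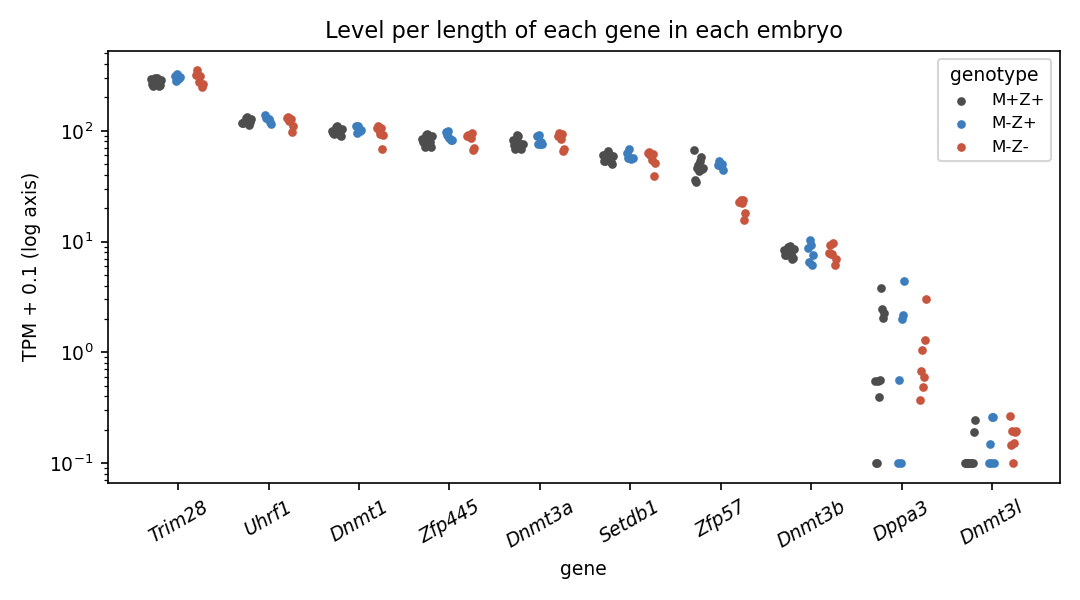
TPM plus 0.1 of each gene (log axis) in each of 23 embryos, coloured by genotype, with genes ordered by their mean. Trim28 leads at a mean of 290 TPM, Dnmt3l ends the order at 0.0496 TPM, and Zfp57 is the gene whose M-Z- embryos sit below the rest.

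Zfp57 (chr17:37138108-37147674, 6 merged exons) was the target of the deletion, and its reads were measured first as a check of the labels. In female M+Z+ embryos it ranged from 52.7 to 99.1 CPM with a median of 63.9 CPM. The 3 female M-Z+ embryos held 68.6, 78.6 and 67.0 CPM. The 4 female M-Z- embryos held 33.0, 31.9, 34.0 and 33.3 CPM. All 4 female M-Z- embryos thus lay below every other female (2.1% of genes that averaged 1 CPM or more had female M-Z- embryos below all M+Z+ females), and their SD of 0.856 CPM was the smallest of the 6 groups. In males the 4 M+Z+ embryos held 80.4, 88.8, 69.0 and 68.0 CPM. The 3 male M-Z+ embryos held 71.6, 74.0 and 66.6 CPM. The 3 male M-Z- embryos held 35.3, 25.5 and 28.3 CPM. As in females, no M-Z- male reached the lowest of the other males (6.5% of genes for M-Z- below M+Z+ males), whereas M-Z+ and M+Z+ males overlapped.

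**Figure D2:**
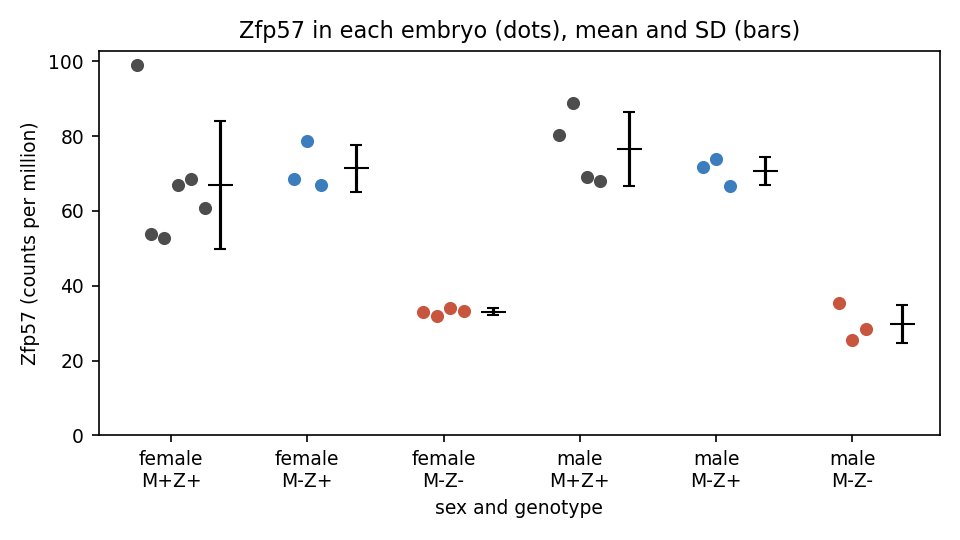
Zfp57 CPM in each of 23 embryos by sex and genotype, with the mean and SD of each group beside its dots. All 7 M-Z- embryos lie between 25.5 and 35.3 CPM, and the 16 others lie between 52.7 and 99.1 CPM.

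Relative to M+Z+, Zfp57 in M-Z- embryos of both sexes together was at 45.1% (95% interval 39.0 to 52.2%), a log2 fold change of -1.15 ± 0.10 (SE; adjusted p = 8.79e-09, edgeR's quasi-likelihood test with sex as a term). It was the only one of the 9 tested genes called, that is with an adjusted p below 0.05 and a log2 difference of 0.5 or more in either direction, where 2.19% of all 17139 tested genes were called. Within females the level was 49.2% (40.2 to 60.1%) and within males 39.7% (33.4 to 47.2%), and Zfp57 was again the only gene of the set called, beside 0.563% and 0.39% of all genes. The male share rests on 65 called genes of 16664, which became 51 of 16881 without male M-Z- replicate 2, 899 of 16866 without male M-Z- replicate 3 and 41 without male M+Z+ replicate 1 or 2, with Zfp57 the only one of the set in each. The size of the fall was not shown to differ between the sexes (interaction -0.32 ± 0.20, adjusted p = 0.808). Against M-Z+ instead of M+Z+, with the same M-Z- embryos, the level was 45.7% (39.0 to 53.7%), and Zfp57 was once more the only gene called, beside 0.566% of all genes (0.196% within females and 0.15% within males, where Zfp57 was the only one as well). Without male M-Z- replicate 2 the log2 fold change against M+Z+ was -1.11 ± 0.10 (adjusted p = 3.32e-08). Titles give the M-Z- embryos as Zfp57-/-, that is without an undeleted copy. Gene-level counts do not show which exons the remaining reads came from, and counts alone do not measure whether a transcript has function.

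Setting M-Z+ beside M+Z+ embryos, which share the M+Z+ embryos with the results above, asks what the loss of the egg's Zfp57 leaves behind. Zfp57 was at 98.7% (95% interval 85.4 to 114%) in M-Z+ embryos of both sexes (log2 fold change -0.02 ± 0.10, adjusted p = 0.956). The point estimate lay on either side of 0 in the sexes, 0.08 ± 0.14 in females and -0.14 ± 0.11 in males. None of the set was called by edgeR in females, in males or in both sexes together, where 0.0593%, 0.048% and 0.0759% of all genes were called. DESeq2 called none either, and at an unadjusted p below 0.05 edgeR gave 1, 0 and 0 of them, beside 6.64% and 7.86% of all genes and, in both sexes, 2315 of the 17139 genes, the 1 being Zfp445 in females (0.12 ± 0.06, adjusted p = 0.733).

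Zfp445 (chr9:122758028-122775124), the other imprint-binding zinc finger gene, ran from 211 to 274 CPM over all 23 embryos. Female M-Z- embryos held 251, 251, 246 and 255 CPM, inside the female M+Z+ range of 211 to 260 CPM (median 248 CPM). Male M-Z- embryos held 274, 212 and 213 CPM against 227, 239, 213 and 256 CPM in male M+Z+ embryos, so that one M-Z- male was the highest of all embryos and another lay just below the lowest M+Z+ male. In both sexes together the log2 fold change was 0.04 ± 0.05 (95% interval -0.05 to 0.14, adjusted p = 0.629) in M-Z- and 0.08 ± 0.05 (-0.02 to 0.18, adjusted p = 0.482) in M-Z+ embryos.

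Trim28 (chr7:13609501-13616381), the scaffold that KRAB proteins recruit, was the highest of the set. Female M+Z+ embryos held 390 to 440 CPM with a median of 421 CPM, and the 4 female M-Z- embryos held 459, 500.5, 458 and 417 CPM. Male M+Z+ embryos held 411, 393, 396 and 425 CPM, and male M-Z- embryos 469, 403 and 414 CPM. The M-Z- and M+Z+ values overlapped in both sexes, but 4 of the 7 M-Z- embryos lay above every M+Z+ embryo. The share of all genes with such a count is not given, so it is a description only. The log2 fold change in both sexes together was 0.13 ± 0.04 (95% interval 0.05 to 0.21), with an adjusted p of 0.0341 that passed while the size did not reach the minimum of 0.5. Of all genes 9.69% had an adjusted p below 0.05 in this comparison, and 2 of the 9 tested genes did, Zfp57 and Trim28. Over 27 alternatives the fold change ran from 0.10 to 0.15 and the adjusted p from 0.012 to 0.10, below 0.05 in 17 of them. It was above 0.05 with no filter on low counts (0.0605), with the replicate number as a block, and without any 1 of 8 embryos (female M+Z+ replicates 2 and 3, female M-Z- replicates 1, 2 and 3, male M+Z+ replicates 2 and 3 and male M-Z- replicate 1), highest at 0.10 without female M-Z- replicate 2. In M-Z+ embryos the values were 440, 417 and 446 CPM in females and 436, 448 and 462 CPM in males, a log2 fold change of 0.08 ± 0.04 (-0.0022 to 0.16, adjusted p = 0.387). Neither sex alone gave a call for M-Z- against M+Z+, with 0.14 ± 0.05 for females at an adjusted p of 0.212 and 0.12 ± 0.07 for males at 0.392.

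Setdb1 (chr3:95127447-95161124), the H3K9 methyltransferase of the complex, overlaps Cers2 on the opposite strand, and the authors counted by strand. Female M+Z+ embryos ranged from 115 to 132 CPM (median 128 CPM) and female M-Z- embryos held 131, 130, 125 and 119 CPM. Male M+Z+ embryos held 115, 116, 112 and 125 CPM and male M-Z- embryos 131, 91.0 and 115 CPM. The low male is replicate 2, the lowest of the 23 embryos. With it the log2 fold change in both sexes was 0.00 ± 0.04 (-0.09 to 0.09), and without it 0.04 ± 0.04 (-0.04 to 0.11, adjusted p = 0.585). In M-Z+ embryos it was 0.02 ± 0.05 (-0.07 to 0.12).

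Dnmt1 (chr9:20711650-20764332), the maintenance methyltransferase, had the same low embryo. Male M-Z- embryos held 304, 220 and 279 CPM against 284, 272, 269 and 300 CPM in male M+Z+ embryos. Female M-Z- embryos held 299, 305, 287 and 277 CPM, and female M+Z+ embryos ranged from 279 to 304 CPM with a median of 288 CPM. Apart from that male, M-Z- and M+Z+ embryos overlapped throughout. The log2 fold change in both sexes was -0.01 ± 0.04 (-0.09 to 0.08) with male M-Z- replicate 2 and 0.03 ± 0.03 (-0.04 to 0.10) without it. In M-Z+ embryos it was 0.02 ± 0.04 (-0.07 to 0.11, adjusted p = 0.873).

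Setdb1 and Dnmt1 ran together over embryos more than any other pair of the 8 expressed genes, with a Pearson correlation of log2 CPM of 0.907 over 23 embryos. The points share library and depth, and without male M-Z- replicate 2 the value was 0.76 over 22. Trim28 and Dnmt1 were then the closest pair at 0.78. Zfp57 was correlated with none of the other 7 beyond 0.27 in size over the 23 embryos, and with Dnmt3a at -0.4 over the 22. Taken as deviations from the 6 group means the values differed, with 0.505 for Dnmt3a, 0.418 for Zfp445, 0.415 for Setdb1 and 0.37 for Trim28 over the 23 embryos.

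Uhrf1 (chr17:56442760-56462909), which leads DNMT1 to replicated DNA, was among the steadiest of the set. It ran from 195 to 213 CPM (median 203 CPM) in female M+Z+ embryos and stood at 212, 213, 199 and 213 CPM in female M-Z- embryos. Male M+Z+ embryos held 199, 195, 206 and 211 CPM and male M-Z- embryos 213, 181 and 196 CPM. All groups overlapped, and the lowest value was again that of male M-Z- replicate 2. The log2 fold change in both sexes was 0.02 ± 0.03 (-0.05 to 0.09, adjusted p = 0.726) in M-Z- and 0.02 ± 0.04 (-0.06 to 0.09) in M-Z+ embryos, so that a change of 0.5 lies outside both intervals.

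Dnmt3a (chr12:3806980-3914443), the de novo methyltransferase with the higher level, had the lowest adjusted p after Zfp57 and Trim28 in both sexes together. Female M+Z+ embryos ranged from 323 to 388 CPM with a median of 377 CPM. Female M-Z- embryos held 403, 421, 403 and 392 CPM, and all 4 lay above the highest female M+Z+ embryo. Of the 15503 genes that averaged 1 CPM or more, 2.37% separated these females in that direction. Males overlapped, with 424, 328 and 331 CPM in M-Z- and 362, 342, 324 and 344 CPM in M+Z+ embryos. Females gave a log2 fold change of 0.14 ± 0.06 with an adjusted p of 0.219, males one of 0.11 ± 0.08 with 0.516, and both sexes one of 0.13 ± 0.05 (95% interval 0.04 to 0.23) with 0.0683, none of them called. Male M-Z- replicate 1 carried much of the male value, which was -0.0023 without it, and without male M-Z- replicate 3 the adjusted p in both sexes was 0.0229. The interaction between sex and genotype was -0.04 ± 0.10 (adjusted p = 0.958). In M-Z+ embryos the log2 fold change was 0.02 ± 0.05 (-0.08 to 0.12).

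Dnmt3b (chr2:153475185-153513466), the other de novo enzyme, was at 12.1 to 19.1 CPM over all embryos. Female M-Z- embryos held 15.1, 17.3, 14.7 and 15.2 CPM against a female M+Z+ range of 15.1 to 17.0 CPM (median 15.8 CPM). Male M-Z- embryos held 19.1, 13.1 and 14.4 CPM against 15.3, 14.2, 14.4 and 16.6 CPM. M-Z- and M+Z+ embryos overlapped in both sexes. The log2 fold change in both sexes was 0.01 ± 0.08 (-0.15 to 0.18) in M-Z- and -0.03 ± 0.08 (-0.20 to 0.15) in M-Z+ embryos.

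**Figure D3:**
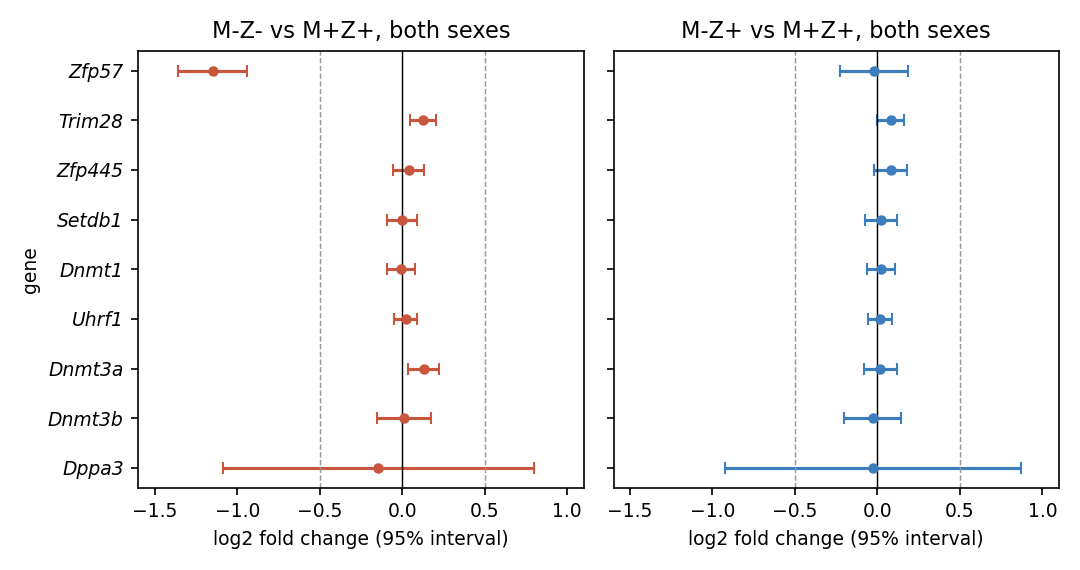
Log2 fold change with its 95% interval for the 9 tested genes in both sexes together, M-Z- against M+Z+ on the left and M-Z+ against M+Z+ on the right, from 23 embryos. Dashed lines mark the minimum size of 0.5. Zfp57 in M-Z- embryos is at -1.15 and outside the dashed lines, the other intervals cross or lie within them, and that of Dppa3 runs from -1.09 to 0.80.

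Dnmt3l (chr10:77505032-77526367), the cofactor of DNMT3A and DNMT3B in germ cells, had 0 to 4 counts per embryo and passed the filter on low counts in no fit. The 6 female M+Z+ embryos had 0 counts in all, where 3 counts would be 0.0281 CPM over the group and the exact Poisson interval runs from 0 to 0.0345 CPM. The 4 female M-Z- embryos had 4, 1, 2 and 0 counts, 7 together or 0.0907 CPM (exact Poisson interval 0.0365 to 0.187 CPM). Summed over genotypes, 13 females held 8 counts (0.0336 CPM, 0.0145 to 0.0663) and 10 males held 16 (0.0935 CPM, 0.0534 to 0.152). The interval for female M+Z+ ends just below the start of that for female M-Z- embryos, and both cover counting error only and leave out the spread between embryos. With no filter on low counts, edgeR gave Dnmt3l in M-Z- against M+Z+ an adjusted p of 0.205 in females and 0.207 in both sexes, so it was not called. These sums are at a depth where single reads decide.

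Dppa3 (chr6:122576442-122580289) was sparse in females, with 29 counts in 13 embryos, and less so in males. The 6 female M+Z+ embryos had 3, 0, 0, 3, 2 and 3 counts, the 3 female M-Z+ embryos 0, 3 and 0, and the 4 female M-Z- embryos 2, 4, 6 and 3. The 4 male M+Z+ embryos had 34, 15, 13 and 14 counts, the 3 male M-Z+ embryos 11, 12 and 28, and the 3 male M-Z- embryos 3, 8 and 19. Male M+Z+ embryos held 0.756 to 1.41 CPM and male M-Z+ embryos 0.715 to 1.63 CPM, against a female range of 0 to 0.343 CPM. Of the 3 male M-Z- embryos, 1 (0.189 CPM) lay within that female range. The share of all genes that separate the sexes in this way is not given, so the gap is a description only. As CPM of the summed counts, females stood at 0.122 (exact Poisson interval 0.0817 to 0.175) and males at 0.917 (0.779 to 1.07).

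**Figure D4:**
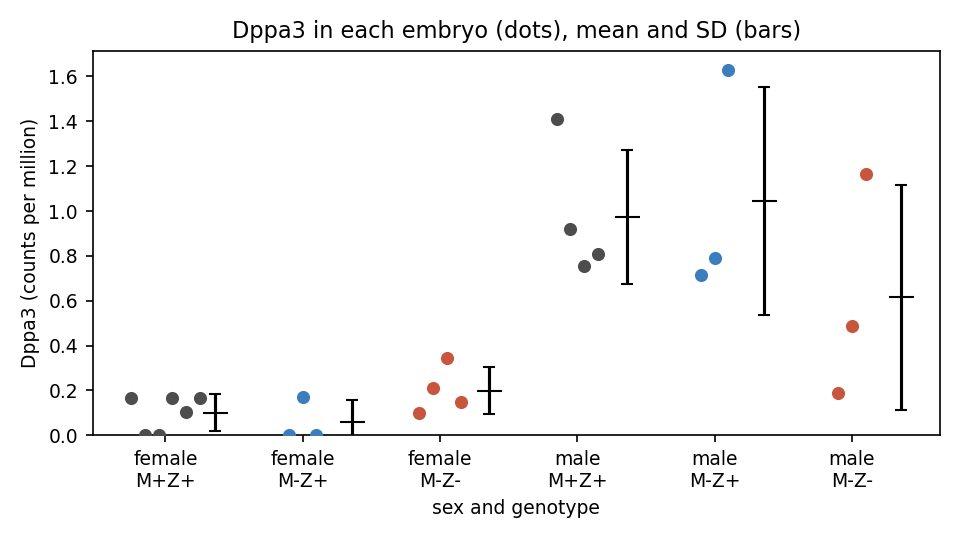
Dppa3 CPM in each of 23 embryos by sex and genotype, with the mean and SD of each group beside its dots. The 7 male M+Z+ and M-Z+ embryos lie between 0.715 and 1.63 CPM and the 13 females between 0 and 0.343 CPM, with male M-Z- embryos spread over 0.189 to 1.17 CPM.

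In a fit of all 6 groups of sex and genotype, Dppa3 was the only gene of the set called between the sexes, at an adjusted p below 0.05 and a log2 difference of 0.3 or more. Dppa3 did not pass the filter on low counts within females and entered this fit through the males, where it is high. The calls between the sexes thus describe a difference that the filter had already favoured. They are not independent support for it. In M+Z+ embryos Dppa3 was 9.11-fold higher in males (95% interval 4.10 to 20.3), a log2 fold change of 3.19 ± 0.56 with an adjusted p of 0.00846, where 0.0817% of all genes were called. In M-Z+ embryos it was 16.8-fold higher (5.16 to 54.9, log2 fold change 4.07 ± 0.83, adjusted p = 0.0352), where 0.222% of all genes were called. The size there rests on 3 female counts in all, from 1 embryo. In M-Z- embryos it was 3.14-fold higher (1.25 to 7.94), a log2 fold change of 1.65 ± 0.65 that was not called (adjusted p = 0.198; unadjusted p = 0.0174), where 0.309% of all genes were called. That value was 0.84 ± 0.77 (adjusted p = 0.566) without male M-Z- replicate 3 and 2.08 ± 0.64 (adjusted p = 0.0514) without male M-Z- replicate 1. The sex difference was not shown to differ between M-Z- and M+Z+ embryos (interaction -1.53 ± 0.91, 95% interval -3.42 to 0.35, adjusted p = 0.794). Without male M+Z+ replicate 1 the M+Z+ difference was 2.92 ± 0.62 (adjusted p = 0.11), and in M-Z+ embryos the call was lost without either of the female replicates 1 and 3 or any of the 3 males. Both calls were also lost with the replicate number as a block. DESeq2 called Dppa3 in M+Z+ embryos (3.26 ± 0.63, adjusted p = 0.000289) and gave no adjusted p in the other genotypes.

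Between genotypes Dppa3 was tested in males and in both sexes together. In males the log2 fold change of M-Z- against M+Z+ was -0.64 ± 0.51 (-1.74 to 0.45, adjusted p = 0.531). It was -0.22 ± 0.48 (adjusted p = 0.837) without male M-Z- replicate 1, -0.54 ± 0.57 without replicate 2 and -1.46 ± 0.57 (adjusted p = 0.121) without replicate 3, so its size rests on single embryos. That of M-Z+ was 0.07 ± 0.46 (-0.93 to 1.08). In both sexes it was -0.14 ± 0.46 (-1.09 to 0.80) in M-Z- embryos and 0.03 ± 0.47 without male M-Z- replicate 2, and -0.03 ± 0.44 (-0.92 to 0.87) in M-Z+ embryos. A fall of 0.5 lies inside each of the 4 intervals.

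Markers of gonadal cells were read beside Dppa3. Of 6 Sertoli and Leydig markers, Amh and Cyp17a1 were called higher in males of M+Z+ (1.90 ± 0.31 and 5.09 ± 0.70) and M-Z+ embryos (2.60 ± 0.38 and 5.05 ± 1.05), and Amh in males of M-Z- embryos (2.54 ± 0.33). Cyp17a1 averaged 0.0282 CPM in female M+Z+ and 0.0187 CPM in female M-Z+ embryos, below what a count of 0 allows. Its 2 fold changes are thus not exact sizes. Like Dppa3, Cyp17a1 entered this fit through the males, where it is high (mean 1.17 CPM in male M+Z+ embryos). Its calls are not independent support for a sex difference. DESeq2 called Amh and Cyp17a1 in M+Z+ embryos and made no call of them in the other genotypes. The summed level of the 6 markers was 9.61 to 15.6 CPM in males and 4.54 to 8.56 CPM in females. Dhh, of the same list, was not among those called. Its mean was 1.97 CPM in female and 2 CPM in male M+Z+ embryos. It was 1.47 and 2.51 CPM in M-Z+, and 2.21 and 2.17 CPM in M-Z- embryos, in that order. Of 12 germ cell markers 9 were tested and none was called between the sexes in any genotype by edgeR or DESeq2, with 2, 1 and 1 at an unadjusted p below 0.05 by edgeR for the 3 genotypes in that order, beside 4.92%, 12.6% and 16.3% of all genes. Their summed level was 19.2 to 26.5 CPM in male M+Z+ against 17.6 to 20.1 CPM in female M+Z+ embryos, 19.4 to 24 against 15.6 to 21.5 CPM in M-Z+ embryos, and 16.6 to 18.3 against 16.2 to 19.8 CPM in M-Z- embryos. Of this sum, Tfap2c alone held a mean of 11.4 CPM in male and 10.3 CPM in female M+Z+ embryos. Of the 9, 8 lay above 0 for males against females in M+Z+ (median log2 fold change 0.40), 6 in M-Z+ (median 0.53) and 5 in M-Z- embryos (median 0.11). In M-Z- against M+Z+ males 5 of 8 tested lay below 0, with a median of -0.61 (-0.47 without male M-Z- replicate 2), beside 0.0017 over all genes. There 3 of the 8 had an unadjusted p below 0.05, beside 17% of all genes, and neither tool called any. Their part in the Dppa3 values was not tested.

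None of the other 8 tested genes was called between the sexes. For the 7 without Zfp57, the log2 fold change of males against females lay between -0.09 and 0.00 in M+Z+, between -0.12 and 0.04 in M-Z+ and between -0.14 and 0.02 in M-Z- embryos, with no unadjusted p below 0.05, beside 4.92%, 12.6% and 16.3% of all genes. In M-Z- embryos Setdb1 was at -0.14 ± 0.07 (adjusted p = 0.321) and Dnmt3a at -0.13 ± 0.07 (adjusted p = 0.38), and without male M-Z- replicate 1 they were at -0.25 ± 0.07 (adjusted p = 0.0377) and -0.24 ± 0.07 (adjusted p = 0.045), below the minimum size. For Zfp57 it was 0.19 ± 0.12 in M+Z+, -0.02 ± 0.16 in M-Z+ and -0.12 ± 0.16 in M-Z- embryos. No gene of the set was called for an interaction of sex and genotype by edgeR or DESeq2, nor was any of 17139 genes by edgeR (0% of all), and none of the set had an unadjusted p below 0.05, beside 6.46% of all genes for M-Z- and 3.65% for M-Z+.

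Beyond the 10 genes, lists of the same pathways were counted in M-Z- against M+Z+ embryos, where 15.5%, 17% and 25.4% of all genes had an unadjusted p below 0.05 in females, males and both sexes. Of 24 partners of TRIM28 and SETDB1 and H3K9 methylation genes (Cbx1, Cbx3, Cbx5 and Atf7ip among them), none was called in females, males or both sexes together by edgeR or DESeq2. Their unadjusted p was below 0.05 in 2, 5 and 7 cases, and the median log2 fold change in both sexes was -0.0075, against -0.0017 over all tested genes (0.028 without male M-Z- replicate 2). In both sexes together 3 of the 24 had an adjusted p below 0.05, beside 9.69% of all genes, without reaching the minimum size, named after their values were seen: Atf7ip (-0.22 ± 0.07), Ehmt2 (0.17 ± 0.04) and Mta1 (0.21 ± 0.06). Of 20 genes for DNA methylation maintenance, reading and removal (Uhrf2, Hells, Cdca7 and Usp7 among them), none was called by either tool, with 1, 3 and 3 at an unadjusted p below 0.05 and a median of -0.0054. Of 13 other imprint and retroelement zinc finger factors (Zfp568, Zfp809 and Zfp708 first), 10 were tested and none was called by either tool, with 0, 2 and 2 at an unadjusted p below 0.05 and a median of -0.034. Of 6 genes of the oocyte subcortical complex (Nlrp5, Nlrp2, Khdc3 and Ooep first), 3 were tested and none was called by either tool, with none at an unadjusted p below 0.05.

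Of 15 replication and cycling genes, none was called in females, males or both sexes by edgeR or DESeq2, with 1, 4 and 3 at an unadjusted p below 0.05. All 15 lay below 0 in males and in both sexes together (median -0.19 in males and -0.08 in both sexes), against 10 of 15 in females (median -0.03). Without male M-Z- replicate 2, 12 of 15 lay below 0 in males (median -0.08) and 13 of 15 in both sexes (median -0.04). Of the 10 genes, Dnmt1, Uhrf1, Setdb1 and Zfp57 had their lowest level of the 23 embryos in that same embryo.

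Reads over strain variants gave the balance of the parental alleles for 5 of the genes. The P-score is the paternal share of the allele-assigned reads minus 0.5, so that 0 means equal alleles, and embryos with 10 or fewer such reads were given none. Zfp57, Uhrf1 and Dnmt3l had 0 allele-assigned reads in all 23 embryos, Trim28 had 1 and Dppa3 had 45 in total, so which allele the remaining Zfp57 reads came from could not be measured. Dnmt1 held 875 to 1632 reads per embryo and a mean P-score of 0.0034 ± 0.0216 (SD, n = 23). Dnmt3a held 584 to 1156 reads and -0.0199 ± 0.0199. Zfp445 held 426 to 762 reads and -0.0115 ± 0.0207. All 3 were close to equal alleles, with no embryo beyond 0.0569 in size. Setdb1 held 108 to 231 reads and 0.0262 ± 0.0459, and Dnmt3b, with only 22 to 66 reads, -0.0588 ± 0.11. The wider spread of these last 2 goes with their lower read numbers.

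**Figure D5:**
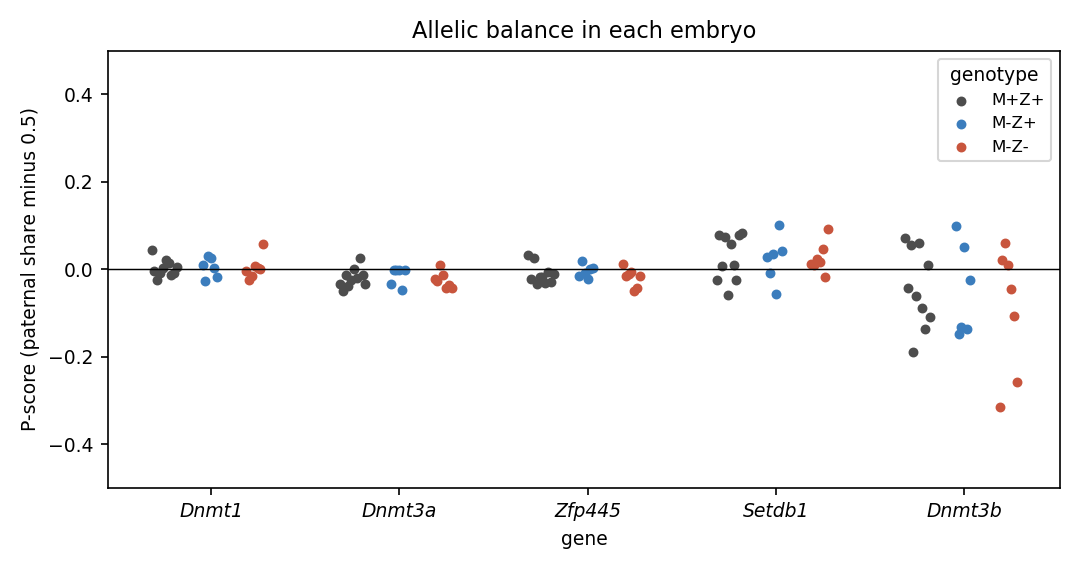
P-score (paternal share of allele-assigned reads minus 0.5) of the 5 genes with enough reads, in each of 23 embryos, coloured by genotype. Dnmt1, Dnmt3a and Zfp445 stay within 0.0569 of 0, and Dnmt3b spreads from -0.316 to 0.1.

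No allelic shift of these 5 genes was called between M-Z- or M-Z+ and M+Z+ embryos of either sex (quasi-likelihood test of edgeR on the counts of both alleles, with an adjusted p below 0.05 and P-scores 0.1 or more apart), where 0.402% and 0.186% of all tested genes were called in females and 2.54% and 0.171% in males. None had an unadjusted p below 0.05. The largest difference of the group P-scores was 0.0606 in size, for Dnmt3b in male M-Z+ embryos. By an exact two-sided permutation test over embryos the smallest p of the 20 comparisons was 0.0571, for Dnmt3a in male M-Z- (-0.04, n = 3) against male M+Z+ embryos (-0.01, n = 4), where 0.0286 is the smallest p possible and the adjusted p over the 20 was 1.

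The genes whose levels ran most like those of 4 members were found by the Pearson correlation of log2(CPM + 0.5) over the 23 embryos among the 15503 genes that averaged 1 CPM or more, as a description with no test. For Zfp57 they were Phactr2 (0.923), Blcap (0.895), Dlk1 (0.891), Cdk19 (0.883) and Zim1 (0.882). Taken as deviations from the 6 group means, these 5 values ran from -0.526 (Dlk1) to 0.428 (Cdk19). For Dppa3 they were the Y-linked genes Kdm5d (0.853), Ddx3y (0.852), Uty (0.852) and Eif2s3y (0.845), and Amh (0.797), and as deviations from the group means they ran from -0.697 (Eif2s3y) to 0.347 (Kdm5d). For Uhrf1 they were Larp1 (0.806), Mbnl1 (0.8), Fam120a (0.798), Klhl31 (0.795) and B3galnt2 (0.783). For Dnmt3l they were Arf1 (0.795), Cops7a (0.763), Pth1r (0.737), Il17d (0.733) and Mcam (0.719), over counts of 0 to 4 from which nothing is read.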

How the data were processed

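The authors trimmed reads with TrimGalore, aligned them to mm9 with STAR 2.7.8a, kept unique alignments and counted reads per gene and strand with featureCounts of Subread 2.0.1, each read going to every gene it overlapped. The deposited tables hold these raw counts, positions and the exon lengths (base pairs) used for TPM. For allelic counts the authors called SNPs with GATK, masked mm9 and split reads by parent with SNPsplit. Column headers that say WT were read as M+Z+, 4 female M+Z+ embryos of the allelic table were known by group only, and 0 columns went unused.

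Counts were scaled by TMM, filtered with filterByExpr and tested across all genes with edgeR 4.0.16 (quasi-likelihood, Benjamini-Hochberg adjustment) in R 4.3.3, within each sex, in both sexes with sex as a term, and in 6 groups for sex and interaction. A call needed an adjusted p below 0.05 and a log2 change of at least 0.5 (genotypes) or 0.3 (sexes), with no minimum for interactions. The allelic test took genes that averaged 20 or more allele-assigned reads. DESeq2 1.42.0, RLE scaling, no filter, only the compared genotypes, a replicate block and each embryo left out were alternatives. Fits were tested on simulated data, of which no outcome is given here. Replicate libraries differed by more than sampling noise. All members were named, with list genes named if called and otherwise up to 4 in list order. The members and lists were chosen with earlier results of these data known.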

Additional observations from a re-analysis of the deposited data

Results flagged for a closer look

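A set held the levels or P-scores of one gene, or the correlations of embryos with all others, in one group. In 3 of 47 tested sets the highest or lowest embryo lay far from the others relative to the range of its group. Chance gives about 1 in 20. Groups of 3 embryos were not tested, so male M-Z- replicate 2 could not be flagged. Zfp57 in female M+Z+ embryos was highest in replicate 1 at 99.1 CPM, and its gap to the next embryo made up 0.661 of the range of the 6. Uhrf1 in female M-Z- embryos was lowest in replicate 3 at 199.1 CPM, with a gap of 0.902 of the range of the 4, although this value lies inside the female M+Z+ range. The Dnmt3b P-score in female M-Z- embryos was lowest in replicate 1 at -0.316, with a gap of 0.866 of the range of the 4. No causes were tested.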

How the results depend on the processing

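The fall of Zfp57 in M-Z- embryos was called under all 27 alternatives in both sexes, all 18 in females and all 15 in males. With no minimum change, 2 members passed in both sexes instead of 1. Fold changes close to 0 changed sign in M-Z- against M+Z+ of both sexes: Setdb1 to -0.0013 with RLE scaling, -0.0012 with DESeq2 and -0.0036 with no filter, and Dppa3 to 0.10 with DESeq2. With 1 embryo left out in turn they ran from -0.0036 to 0.062 (Zfp445), -0.035 to 0.038 (Setdb1), -0.033 to 0.031 (Dnmt1), -0.053 to 0.033 (Dnmt3b) and -0.37 to 0.21 (Dppa3), and Dnmt3a in males from -0.0023 to 0.19. In M-Z+ against M+Z+ of both sexes they ran from -0.061 to 0.053 (Zfp57), -0.0017 to 0.038 (Uhrf1), -0.00057 to 0.043 (Dnmt3a), -0.090 to 0.032 (Dnmt3b) and -0.50 to 0.20 (Dppa3). The members called between the sexes ran from 0 to 1 in M+Z+ and from 0 to 1 in M-Z+ embryos. The causes of these changes were not tested.

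The shared replicate numbers were not seen to pair the embryos as a whole: of 19 same-numbered pairs, 4 had correlated deviations over 0.1 (range -0.36 to 0.508). Pairs with different numbers were not set beside them, so this check cannot exclude that some embryos are paired. With the replicate number as a block, Zfp57 was at -1.18 in both sexes (adjusted p = 1.86e-06, edgeR) and stayed called, Dnmt1 moved to 0.0090, Trim28 had an adjusted p of 0.0835, and 0 members were called between the sexes in M+Z+ and in M-Z+ embryos, Dppa3 having an adjusted p of 0.168 and 0.0646. All genes called in M-Z- against M+Z+ numbered 95 in females, against 148 with DESeq2, 52 with the block and 55 to 116 with an embryo left out, and 65 in males, against 184, 128 and 41 to 899, with 99 under no filter and 40 with only the compared genotypes. List counts without male M-Z- replicate 2 were chosen after seeing the data. Depth limits Dppa3 and Dnmt3l in females and the P-scores of Dnmt3b.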
